A study of Rattus norvegicus with 99 samples.

Results

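The interferon response of the heart was followed through 9 of its target genes, in rats with a banded pulmonary artery or aorta. These were Isg15, Mx1, Mx2, Irf7, Usp18, Rsad2, Ifit2, Ifit3 and Oas1a, taken by symbol from a named list. All 9 members of the list were present among the 17337 genes of the whole-heart table, and all 9 passed the filter on low counts in every fit. Messenger RNA was sequenced from the left ventricle (LV), the septum (Spt) and the right ventricle (RV) of 33 male rats, which gave 99 libraries, 1 for each chamber of each animal.

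All animals were F1 rats, with a Wistar Kyoto dam and a Lewis sire. A clip that did not yet constrict was set around the pulmonary artery (PAB) or the aorta (AOB), so that the vessel narrowed as the rat grew, and sham-operated rats were the controls. According to the labels, the Sham-H, AOB-H and PAB-H groups of 7 rats each were 11 weeks old, 7 weeks after surgery. The letter H stands for compensated hypertrophy, the stage of the AOB-H and PAB-H rats, and the Sham-H rats were their controls. The 3 PAB-F rats with right heart failure (F) and their 2 Sham-RF controls were 27 weeks old, 21 weeks after surgery. The 4 AOB-F rats with left heart failure and their 3 Sham-LF controls were 30 weeks old, 24 weeks after surgery. These ages and times are those given for each sample, and the treatment protocol of the labels and the study's methods give others. The libraries held between 12.1 M and 24.2 M counts. Fewer cells of a type and less RNA per cell cannot be told apart in tissue RNA. Nothing in the sources used here says whether counting used the strand, so reads shared by close relatives (Mx1 and Mx2, the Ifit and the Oas families) or by overlapping genes leave those levels uncertain.

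Interferons are secreted proteins that alarm neighbouring cells of a viral infection or of nucleic acid in the wrong place. Type I interferon binds a receptor of the subunits Ifnar1 and Ifnar2, and the signal passes through the kinases Jak1 and Tyk2 to genes with interferon-stimulated response elements. Most cell types of the heart carry the receptor, and many interferon-stimulated genes have a basal level without infection. Irf7 is the transcription factor that amplifies the response. Isg15 is a ubiquitin-like protein that is joined to other proteins, and Usp18 takes it off again and also dampens signalling at the receptor. Mx1 and Mx2 are dynamin-like GTPases against viruses, Rsad2 (viperin) makes an antiviral nucleotide, Ifit2 and Ifit3 bind viral RNA or its partners, and Oas1a is an oligoadenylate synthetase that activates RNase L.

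The stretches before the transcription start were searched for a sequence that members may share. RefSeq promoter windows of the GRCr8 assembly were matched by symbol for 5 of the 9 members, Ifit3, Irf7, Mx1, Oas1a and Rsad2. A response element was searched, on both strands and with overlaps allowed, as GAAA repeated after a gap of 2 bases in the 250 bases upstream of the start. It was found in 4 of these 5 windows and in 3.41% of all 33469 windows (1140). The stretches around it are printed 5′ to 3′ on the strand of the gene, with the matched letters in capitals. They share these letters because the letters were searched for, and the windows were not compared in any other way. In Oas1a the capitals cover 2 overlapping matches.
Ifit3, chr1:241527222-241527325, plus strand: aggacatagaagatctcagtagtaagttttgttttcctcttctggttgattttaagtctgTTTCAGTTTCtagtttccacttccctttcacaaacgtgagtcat
Irf7, chr1:205800024-205800152, minus strand: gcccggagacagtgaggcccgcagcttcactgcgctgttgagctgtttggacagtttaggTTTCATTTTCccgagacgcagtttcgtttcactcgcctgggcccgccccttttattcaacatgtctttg
Oas1a, chr12:41330365-41330465, plus strand: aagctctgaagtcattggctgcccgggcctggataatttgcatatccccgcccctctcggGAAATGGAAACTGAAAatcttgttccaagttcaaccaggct
Rsad2, chr6:48788198-48788327, minus strand: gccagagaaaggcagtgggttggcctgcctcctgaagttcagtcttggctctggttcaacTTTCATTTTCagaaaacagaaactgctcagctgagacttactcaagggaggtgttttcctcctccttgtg
The match began 44 bases before the start in Ifit3, 69 in Irf7, 147 in Rsad2, and 41 and 35 in Oas1a. In Ifit3, Irf7 and Rsad2 it lay on the strand opposite to the gene. No match of these letters was in the window of Mx1.

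On the authors' FPKM scale, which divides by gene length and allows levels of different genes to be compared, Irf7 had the highest mean over the 99 libraries, 68.8, followed by Isg15 (39.6), Mx2 (38.3), Usp18 (26.3), Ifit2 (25.5), Ifit3 (20.3), Mx1 (12.2), Oas1a (10.9) and Rsad2 (8.30). All further levels are in CPM, counts scaled to the library total after TMM normalization, in which only the same gene may be compared between libraries. The lowest count behind any value was 107 reads, for Oas1a. The highest library exceeded the lowest 2.65-fold for Ifit2, 2.66-fold for Usp18, 2.87-fold for Ifit3, 3.35-fold for Irf7, 3.37-fold for Mx2, 3.45-fold for Oas1a, 3.49-fold for Rsad2, 3.56-fold for Mx1 and 5.22-fold for Isg15. No member was absent from any library.

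**Figure D1:**
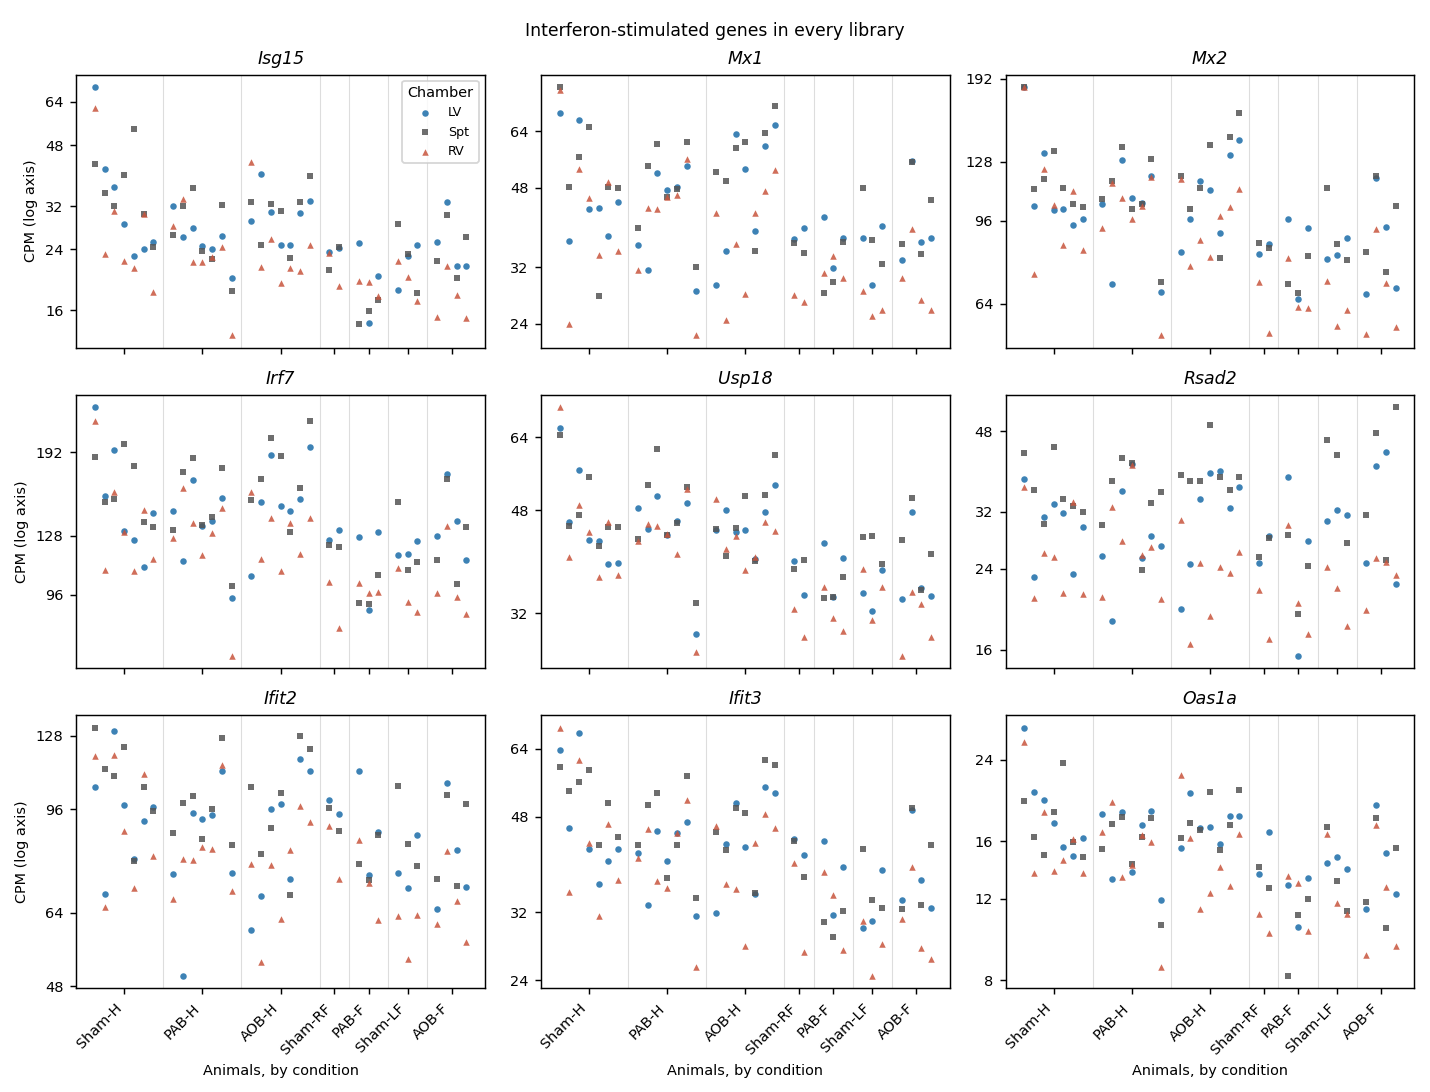
Level of each of the 9 genes in all 99 libraries. Each panel is a gene, the vertical log axis is CPM, animals stand side by side within their condition in the order of their replicate numbers, and circles, squares and triangles are LV, Spt and RV. The left-most animal, Sham-H 1, is among the highest in most panels, with Mx2 at 184 to 185 CPM.

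The 7 conditions and 3 chambers form 21 groups. Averaged over the members, the Spt of Sham-H had a mean rank of 1.78 among them and that of AOB-H 2.11, and the RV of Sham-LF came last with 19.3. The Spt of Sham-H rats had the highest mean of all groups for Isg15, Mx2, Usp18, Ifit2 and Ifit3, the Spt of AOB-H for Mx1 and Irf7, the LV of Sham-H for Oas1a and the Spt of AOB-F for Rsad2. The lowest mean belonged to the RV of Sham-RF for Mx2, Irf7, Usp18 and Rsad2, to the RV of Sham-LF for Mx1, Ifit2 and Ifit3, and to the Spt of PAB-F for Isg15 and Oas1a. For Mx2 the means fell between 124 ± 28.7 CPM (SD, n = 7) in the Spt of Sham-H and 63.4 ± 11.1 (SD, n = 2) in the RV of Sham-RF. For Usp18 the corresponding groups were at 49.0 ± 7.93 and 30.9 ± 2.42 CPM. Neighbours in these orders were closer than their spread: the highest Mx2 groups after the Spt of Sham-H were the Spt of AOB-H at 123 ± 28.1 CPM and the LV of Sham-H at 116 ± 32.6 (SD, n = 7 each).

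Within conditions, single animals stood apart. Each library was set against the mean of its group on the log2 scale, and the 9 deviations were averaged. The animal Sham-H 1 lay above its group by 0.56 (LV), 0.34 (Spt) and 0.72 (RV), with all 9 members above the group mean in each chamber. The animal AOB-F 2 lay above by 0.41, 0.34 and 0.34, again with all 9 members above in each chamber. The animal PAB-H 7 lay below its group, at −0.38, −0.43 and −0.64, with 0, 1 and 0 members above the group mean in LV, Spt and RV. Sham-H 1 and AOB-F 2 were the only animals of 33 with all 9 members above the group mean in all 3 chambers, and no animal had all 9 below in all 3. Sham-H 1, AOB-F 2 and PAB-H 7 were picked by these same values, so the counts of members that follow only describe them. Shares of all genes were counted for all 3 chambers together, not for single chambers.

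**Figure D2:**
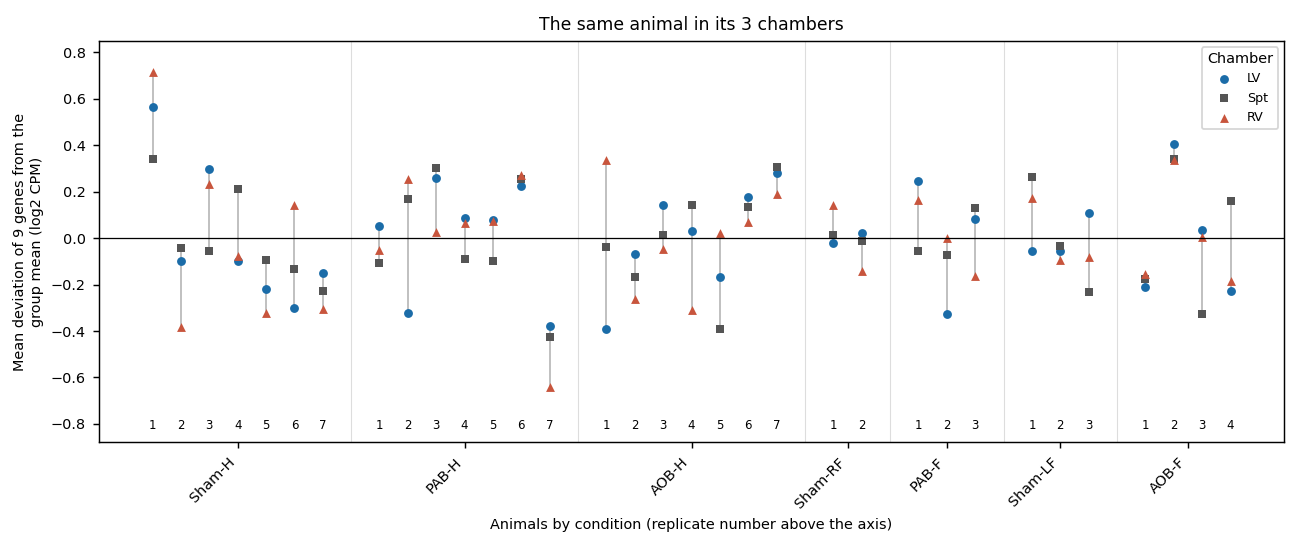
Mean deviation of the 9 genes from the mean of the group, in log2 CPM, for each of the 33 animals. Circles, squares and triangles are the LV, Spt and RV of the animal, grey lines join its chambers and numbers are replicate numbers. Sham-H 1 (0.34 to 0.72) and AOB-F 2 (0.34 to 0.41) lie above 0 in all chambers, PAB-H 7 (−0.64 to −0.38) lies below 0, and 20 of 33 animals have chambers on both sides of 0.

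Mx2 showed the pattern of Sham-H 1 most evenly. This animal had 184, 185 and 184 CPM in its LV, Spt and RV. The other 6 Sham-H rats had 94.0 to 134 CPM in LV (median 102), 103 to 135 in Spt (median 112) and 73.8 to 124 in RV (median 94.5). Sham-H 1 was thus above every other sham of its age in all 3 chambers, by 1.81, 1.64 and 1.95 times their median. Usp18 stood at 66.3, 64.5 and 72.0 CPM in the LV, Spt and RV of Sham-H 1, and the other Sham-H rats had 38.9 to 56.3, 41.7 to 54.7 and 36.9 to 49.0 CPM. Mx1 had 70.3, 80.3 and 79.2 CPM in this animal, while the others had 36.6 to 67.8, 27.6 to 65.5 and 23.9 to 52.8. For Mx1, Mx2 and Usp18, Sham-H 1 was above all other Sham-H rats in every chamber. These 3 are 33.3% of the members, and 0.444% of all genes tested were highest in this animal in all 3 chambers.

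The other members followed in LV and RV more than in Spt. Isg15 had 70.7 CPM in the LV and 61.5 in the RV of Sham-H 1, against medians of 26.8 and 22.7 in the other Sham-H rats. In Spt, Isg15 had 42.4 CPM in Sham-H 1, below the 53.3 CPM of Sham-H 5. The Spt library of Sham-H 5 also had 4.48% of its counts on ribosomal protein genes, the highest of all 99 libraries (range 2.13% to 4.48%), and the steepest fall of its deviations from the group mean with gene length over all genes, at −0.29 log2 units per doubling of length. Over the members, Sham-H 1 was above all other Sham-H rats for 7 of 9 in LV, 5 of 9 in Spt and 8 of 9 in RV. Its folds over the median of the others ran from 1.11 to 2.64 in LV, from 1.14 to 1.66 in Spt and from 1.40 to 2.71 in RV. The exceptions in the ventricles were Ifit2, with 105 CPM in LV and 118 in RV, below the 131 and 119 CPM of Sham-H 3, and Ifit3, with 63.7 CPM in LV, below the 68.4 of Sham-H 3.

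PAB-H 7 was low in each chamber. Mx2 had 67.8, 71.1 and 54.8 CPM in its LV, Spt and RV, and the other PAB-H rats had 70.4 to 129 CPM in LV, 102 to 137 in Spt and 92.4 to 119 in RV. Usp18 had 29.6, 33.3 and 27.5 CPM, against 43.6 to 50.8, 42.8 to 61.0 and 40.4 to 52.2. The animal was below every other PAB-H rat for 7 of 9 members in LV, 8 in Spt and 8 in RV. In all 3 chambers alike it was lowest for 7 of 9 members, beside 0.998% of all genes. Its levels were 0.591 to 0.998 times the median of the others in LV, 0.623 to 0.999 in Spt and 0.507 to 0.864 in RV. Rsad2 kept closest to the others, with 26.9 CPM in the LV and 35.3 in the Spt of this animal.

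In left heart failure, AOB-F 2 was high in each chamber. Mx2 had 67.3, 119, 93.0 and 68.9 CPM in the LV of AOB-F 1, 2, 3 and 4. In Spt the same animals had 82.3, 120, 74.7 and 103 CPM, and in RV 55.3, 92.2, 70.7 and 57.0. AOB-F 2 was the highest of the 4 in all chambers, and over the members it was the highest for 8 of 9 in LV, 8 in Spt and 9 in RV. In all 3 chambers alike it was highest for 8 of 9 members, beside 3.98% of all genes. Only Rsad2 had another animal on top, AOB-F 3 with 43.3 CPM in LV and AOB-F 4 with 54.1 in Spt. For AOB-F 1 and 2, the study's own sheet of samples lists the Spt libraries the other way round from the titles, which were followed here. With these libraries exchanged, 8 of 9 members passed the test between animals that follows beside 32.9% of all genes, and Rsad2 had an adjusted p of 0.110 (edgeR).

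Levels differed between the animals of a condition for all 9 members. The test asked, over the 99 libraries, whether 26 terms for single animals improved a fit that already had the 21 groups (edgeR quasi-likelihood F test with Benjamini-Hochberg adjustment). The adjusted p was 2.22e-08 for Usp18, 4.76e-07 for Mx2, 4.62e-06 for Mx1, 4.53e-05 for Ifit3, 9.34e-05 for Ifit2, 0.000177 for Irf7, 0.00118 for Isg15, 0.00316 for Oas1a and 0.0355 for Rsad2. Of all 11924 genes tested, 5007 (42%) passed, so that passing was common. The members ranked from 37 (Usp18) to 4198 (Rsad2) by p. LV and RV libraries of an animal were made in the same library series, as given by the library numbers of the labels, and Spt libraries mostly in another.

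**Figure D3:**
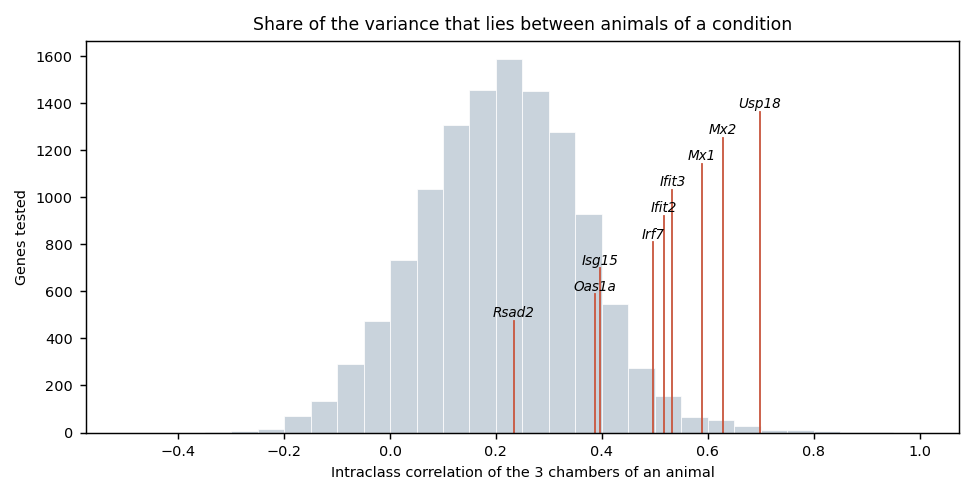
Intraclass correlation of the 3 chambers of an animal, after the means of the 21 groups were taken out, for the 11924 genes tested (bars, genes per bin of 0.05) and the 9 members (red lines, whose heights only separate the names). Usp18 (0.70), Mx2 (0.63) and Mx1 (0.59) lie in the right tail, and Rsad2 (0.23) lies near the median of all genes (0.21).

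The share of the remaining variance that lay between animals, and not between the chambers of an animal, was given by the intraclass correlation. It was 0.70 for Usp18, 0.63 for Mx2, 0.59 for Mx1, 0.53 for Ifit3, 0.52 for Ifit2, 0.50 for Irf7, 0.40 for Isg15, 0.39 for Oas1a and 0.23 for Rsad2. The median over all genes tested was 0.21, with quartiles of 0.11 and 0.31. The chambers deviated in the same direction in 12 (Irf7, Isg15, Rsad2) to 17 (Mx1) of the 33 animals, and the median over all genes was 12. The mean deviation of the members had the same sign in all chambers in 13 of 33 animals, 6 above and 7 below the group.

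The test between animals was repeated on subsets of the libraries. With only LV and RV, 8 of 9 members passed and so did 62.1% of all genes. With LV and Spt, which come from different library series in most animals, 4 of 9 passed (Ifit3, Mx1, Mx2 and Usp18) beside 1.54% of all genes. With Spt and RV, 3 of 9 passed (Mx1, Mx2 and Usp18) beside 1.53% of all genes. With the library series as a factor, 8 of 9 passed beside 16.3% of all genes, and Rsad2 missed with an adjusted p of 0.0589. Among the 21 animals of the compensated stage, shams included, 8 of 9 passed beside 34.4% of all genes. Among the 12 failure-stage animals 0 of 9 passed, with 7 at an unadjusted p under 0.05, beside 0.145% of all genes. Without Sham-H 1 and PAB-H 7, a choice made after their values were seen, 6 of 9 passed beside 44.9% of all genes, and Isg15, Oas1a and Rsad2 did not (adjusted p = 0.115, 0.0990 and 0.0674).

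Set against the libraries of its own chamber and series, Sham-H 1 remained high. It was the highest of 6 libraries for 9 of 9 members in LV, for 9 in RV and for 7 in Spt. PAB-H 7 was the lowest of 6 libraries for 8 members in LV and 9 in RV, and among the 27 Spt libraries of its series it was the lowest for 1. AOB-F 2 was the highest for 0 members among the 21 libraries of its series in LV and in RV and the 27 in Spt, with Mx2 in place 3, 7 and 7 from the top in LV, RV and Spt. The sets of 6 libraries held only rats of the compensated stage and their shams. Those of 21 and 27 also held the older rats of the failure stage, so places in them compare rats of different ages. In Sham-H 1 the slope of the deviations on gene length was −0.15 and −0.12 log2 units per doubling in LV and RV and 0.11 in Spt. Ribosomal protein genes took 3.51%, 2.28% and 3.32% of its counts in LV, Spt and RV.

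Markers of other cell types were read beside these values. None of the 9 macrophage markers was highest in Sham-H 1 in all 3 chambers, nor was any of the 8 markers of T and natural killer cells, the 8 endothelial or the 7 fibroblast markers tested. The sums of macrophage, endothelial and fibroblast markers nevertheless stood apart in single chambers, while that of T and natural killer cells was within the range of the other Sham-H rats in each chamber. Summed macrophage markers were 573 CPM in the LV of Sham-H 1, above the 368 to 551 of the other Sham-H rats, and 340 CPM in its RV, below their 386 to 472. In the same RV library, endothelial markers summed to 1529.9 CPM (others 987 to 1430) and fibroblast markers to 2729.6 (others 3154 to 3930). In the Spt of Sham-H 1, red cell markers summed to 735 CPM (others 1324 to 2104). The cardiomyocyte and neutrophil sums of that library were also below the others. Summed plasmacytoid dendritic cell markers were 492 CPM in LV and 452 in RV, above the others (292 to 455 and 247 to 330), and 330 in Spt, within their range (282 to 509). Most of that sum was Bst2, an interferon-stimulated gene itself (median 218 CPM over the libraries), while the lineage marker Spib was at 0 counts in 10 libraries and at a median of 0.17 CPM. In AOB-F 2 that sum was above the other 3 rats in every chamber, with 419, 435 and 339 CPM in LV, Spt and RV against at most 395, 431 and 333. Its endothelial sum was above them in LV and RV, its fibroblast sum in RV (3160 CPM against at most 2860) and its cardiomyocyte sum in Spt (86650 against at most 85645). In AOB-F 2, 2 of 8 endothelial and 2 of 9 cardiomyocyte markers were highest in all 3 chambers, beside 3.98% of all genes. Its red cell markers were below the other 3 in LV, Spt and RV (1442, 1209.8 and 1662 CPM against at least 1805, 1765 and 1965). Neutrophil markers of AOB-F 2 were above the others in RV (18.4 CPM against at most 10.6). They were below the others in LV and Spt (5.12 and 4.67 CPM against at least 5.69 and 6.95). Its macrophage sum in Spt was also below theirs (399.7 CPM against at least 403.6), as was its B cell sum in Spt (0.81 CPM against at least 1.21). In PAB-H 7 the cardiomyocyte and endothelial sums of the Spt were above those of the other PAB-H rats (99841 and 1492 CPM against at most 96083 and 1368). Its atrial cardiomyocyte sum in RV was below theirs (102 CPM against at least 106). The part of these cells in the members' levels was not tested.

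Other interferon-stimulated genes stood high in the same animals. From a list of 48 such genes that excludes the members, 40 were tested, and 13 of them (32.5%) were highest in Sham-H 1 in LV, Spt and RV alike. The share over all genes tested was 0.444%. For AOB-F 2 the count was 13 of 40 as well, against 3.98% of all genes. For PAB-H 7, 11 of 40 (27.5%) were lowest in all 3 chambers, against 0.998% of all genes. In the test between animals 31 of these 40 genes passed, among them Oas1b, a relative of Oas1a (adjusted p = 1.88e-06, edgeR), Igtp, an interferon-induced GTPase (5.37e-06), and Eif2ak2, the kinase PKR that stops translation (5.46e-06).

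Of the 6 interferon genes in the table, Ifnb1, Ifna1, Ifna4 and Ifnk had at most 2 counts in any library and Ifna2 had none. Ifng, which encodes type II interferon, was counted in 81 of 99 libraries with at most 7 counts, and no ligand passed the filter of the 99-library fit. The receptor subunits Ifnar1 (median 65.3 CPM) and Ifngr1 (median 148 CPM) were well counted, and Ifngr1 was the 1 of 5 receptor genes that passed the test between animals (adjusted p = 0.00553, edgeR). Beside the 42% of all genes that passed, 9 of 14 genes of signal transduction did so. Of 11 sensors and adaptors 8 passed. Of 16 genes of antigen presentation 12 passed, and of 6 chemokines 5.

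The genes whose deviations ran most like the members' mean over the 99 libraries were RT1-S3, a class I histocompatibility gene (Pearson r = 0.88), the guanylate-binding proteins Gbp2 (0.87) and Gbp4 (0.87), Oasl2 (0.87), Dhx58 (0.86), Oas1b (0.85), Irf9 (0.85), Uba7, the enzyme that activates Isg15 (0.84), Rtp4 (0.82) and Irgm (0.81). Of these 10 genes 9 were on the lists of the interferon pathway, though likeness and lists share the same libraries. The median r of all genes was −0.01. Among the members themselves r ran from 0.67 for Rsad2 to 0.97 for Mx2, with each member part of the mean. RT1-S3 had 239, 176 and 213 CPM in the LV, Spt and RV of Sham-H 1, and a median of 144 CPM over all libraries.

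Next, banding was compared with sham within each chamber. None of the 9 members passed in any of the 12 comparisons (edgeR quasi-likelihood test, adjusted p of 0.407 or more). The background was low as well, with 0% of the genes called in 10 of the 12 comparisons, 0.837% in the LV of AOB-F (98 genes) and 0.232% in its Spt (27 genes). With the 3 chambers of an animal summed, again none of the 9 passed in 4 comparisons, beside 0% of the genes in PAB-H and AOB-H, 0.00808% in PAB-F (1 gene) and 4.7% in AOB-F (582 genes). DESeq2 likewise called 0 members in these 16 comparisons. The medians of the 9 log2 fold changes ran from −0.22 in the Spt of PAB-F to 0.12 in the RV of AOB-F, and the median over all genes was within 0.03 of 0 in each comparison.

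In compensated animals with a banded pulmonary artery, most members had values below sham and none passed. All 9 log2 fold changes were negative in LV (median −0.21) and in Spt (−0.15) and 8 of 9 in RV (−0.15), where 52.1%, 51% and 51.1% of all genes were negative. Without Sham-H 1 the medians were −0.10, −0.09 and −0.00024, and without PAB-H 7 they were −0.15, −0.09 and −0.05. Isg15 here was the only member with an unadjusted p under 0.05 in any of the 12 comparisons, with −0.47 ± 0.19 (SE) in LV (adjusted p = 0.957) and −0.42 ± 0.15 in Spt (adjusted p = 0.790), by edgeR. With the chambers summed it had −0.38 ± 0.15 (adjusted p = 0.827), again the only member under an unadjusted 0.05 in the 4 comparisons of sums. In LV it had 25.8 ± 3.70 CPM in PAB-H and 35.5 ± 16.9 in Sham-H (SD, n = 7 each), and the ranges overlapped at 19.8 to 32.0 and 23.0 to 70.7. Without Sham-H 1 Isg15 came to −0.21 ± 0.15 (LV), −0.39 ± 0.16 (Spt) and −0.03 ± 0.18 (RV). Within library series, the LV value was −0.95 in series 1, which holds Sham-H 1, −0.20 in series 2 and −0.10 in series 3.

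In AOB-H hearts, the members below sham were 7 of 9 in LV, 5 in Spt and 9 in RV, where 45.6% of all genes were negative. Over the 9 members their medians came to −0.07, −0.01 and −0.17 for LV, Spt and RV, and without Sham-H 1 they were 0.06, 0.04 and 0.01, which turned the direction in each chamber. The median in Spt also turned without AOB-H 2 (0.02), AOB-H 3 (0.01), AOB-H 5 (0.05) or Sham-H 4 (0.0048). Mx2 had a median of 111 CPM in the LV of AOB-H (82.2 to 142) and 102 in that of Sham-H (94.0 to 184), so the groups overlapped. In failure, the medians were −0.08, −0.22 and 0.09 in LV, Spt and RV of PAB-F, and 0.11, 0.02 and 0.12 in those of AOB-F. Single animals turned the direction of 5 of these 6 medians. Without PAB-F 2 that of the LV of PAB-F was 0.05, and in RV it was −0.0039 without PAB-F 1 and −0.04 without Sham-RF 2.

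The failing right ventricle of PAB-F rats had 6 members above and 3 below sham. Mx2 had 80.0, 63.1 and 62.6 CPM in the RV of the 3 PAB-F rats and 71.3 and 55.6 in the 2 Sham-RF rats. Usp18 had 35.5, 31.4 and 29.8 CPM against 32.6 and 29.2. The ranges overlapped for both genes. The failing left ventricle of AOB-F rats had all 9 log2 fold changes above 0, between 0.02 (Oas1a) and 0.21 (Irf7 and Ifit3), where 47.2% of all genes were negative. Without AOB-F 2, the highest of the 4 rats in LV for 8 of the 9 members, the medians of AOB-F were −0.03, −0.10 and −0.07 in LV, Spt and RV, and without Sham-LF 3 that in Spt was −0.09.

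In the Spt of PAB-F, the calls differed between the fit of all conditions and a fit of its own 2 groups. Isg15 had 14.6, 15.9 and 17.1 CPM in the 3 PAB-F rats and 20.9 and 24.4 in the 2 Sham-RF rats. Ifit3 had 30.7, 28.8 and 32.1 CPM against 43.3 and 37.2. These 2 genes were chosen from the 9 members for display. Their groups of 3 and 2 rats did not overlap, which happens easily in groups this small. The share of all genes that separated so was not counted. All 9 log2 fold changes were negative (median −0.22), with Isg15 at −0.51 ± 0.26 (SE) and an adjusted p of 0.816 in the fit of all 7 conditions. When only these 5 libraries were fitted, the genes tested fell from 11624 to 11154, the SE of Isg15 was 0.11 and 3 members were called, Isg15 (adjusted p = 0.0268), Ifit3 (0.0297) and Irf7 (0.0330), beside 7.1% of all genes.

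**Figure D4:**
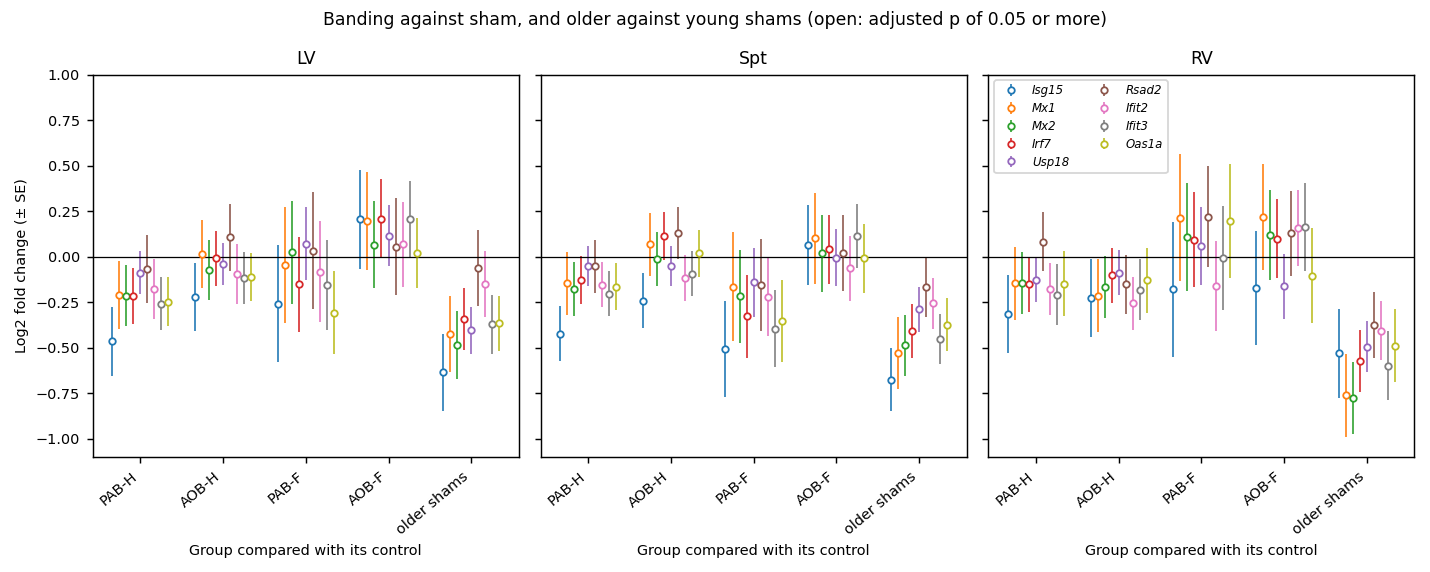
Log2 fold change of each of the 9 genes (± SE) in LV, Spt and RV, for the 4 banded groups against their own shams and for the older against the young shams. All points are open, which stands for an adjusted p of 0.05 or more, the banded groups scatter around 0, and all 27 values of the older shams are negative.

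The shams themselves were then compared by age, the 5 older shams (Sham-RF and Sham-LF) against the 7 young Sham-H rats. All 9 members had lower values in the older shams in LV, Spt and RV, where 52.5%, 56.2% and 51.3% of all genes were lower, and none passed the threshold after adjustment over all genes. The background was 0.0171%, 0.103% and 0.0852% of the genes called in LV, Spt and RV. At an unadjusted p under 0.05, 5 of 9 members were lower in LV, 7 in Spt and 9 in RV, whereas 3.95%, 9.05% and 4.69% of all genes were lower at that level. DESeq2 called Isg15 in Spt (adjusted p = 0.0201) and Mx2 in RV (adjusted p = 0.0320), and no member in LV, beside 1.57%, 0.256% and 0.162% of all genes in Spt, RV and LV. Age and time after surgery cannot be told apart in these groups. With the library series as a factor the medians were −0.39, −0.45 and −0.43 in LV, Spt and RV, with 0 members called.

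For LV, Spt and RV, the members had a median log2 fold change of −0.37, −0.41 and −0.53, while all genes had −0.01, −0.03 and −0.01. The largest values were those of Mx2 and Mx1 in RV, −0.78 ± 0.20 and −0.76 ± 0.23 (SE; adjusted p = 0.160 and 0.256, edgeR), and of Isg15 in Spt, −0.68 ± 0.17 (adjusted p = 0.0716). Mx2 had 71.3 and 55.6 CPM in the RV of the Sham-RF rats and 71.4, 57.5 and 62.1 in that of the Sham-LF rats. The 7 young shams had 73.8 to 184 CPM (median 103). All older shams lay below all young ones, narrowly, at no more than 71.4 CPM against 73.8. The share of all genes that separated so was not counted. Isg15 had 20.9, 24.4, 28.4, 23.3 and 18.0 CPM in the Spt of the 5 older shams and 24.4 to 53.3 (median 34.9) in the young ones, so that these groups overlapped.

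Sham-H 1 belongs to the young shams. Without it, all 9 values were still negative in every chamber, and the medians came to −0.29, −0.37 and −0.36 for LV, Spt and RV, with 0 members called. Without Sham-H 5, whose Spt library had the most ribosomal protein counts, 3 members were called in Spt (Ifit3, Isg15 and Mx1) beside 4.93% of all genes, and without Sham-LF 3, 1 was called (Isg15) beside 6.49%, so that the calls rose over all genes too. The other interferon-stimulated genes lay on the same side, 31 of 40 in LV, 33 in Spt and 35 in RV, and 0, 1 and 0 of them were called lower. The gene called in Spt was Eif2ak2, at −0.50 ± 0.10 (SE; adjusted p = 0.0436, edgeR). Interferon-induced chemokines had values on the other side, 6 of 6 in LV, 5 in Spt and 4 in RV above the young shams, with 0 called. All 8 markers of T and natural killer cells tested had values above the young shams in LV and RV, again with 0 called, and their part in the comparison was not tested.

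Last, the chambers were compared within animals, averaged over the 7 conditions. All 9 members were lower in RV than in LV, a call shared with 18.3% of the genes tested (lower in RV). The log2 fold changes ran from −0.14 ± 0.03 (SE) for Usp18 to −0.35 ± 0.08 for Rsad2, with adjusted p of 0.00122 and 0.000409 (edgeR). Between these lay Ifit3 (−0.19), Oas1a (−0.21), Ifit2 (−0.21), Isg15 (−0.24), Mx2 (−0.25), Irf7 (−0.28) and Mx1 (−0.29). Irf7 had 141 ± 41.0 CPM in the RV and 157 ± 45.1 in the LV of Sham-H, and 103 ± 20.8 and 138 ± 25.2 in AOB-F (SD, n = 7 and n = 4).

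**Figure D5:**
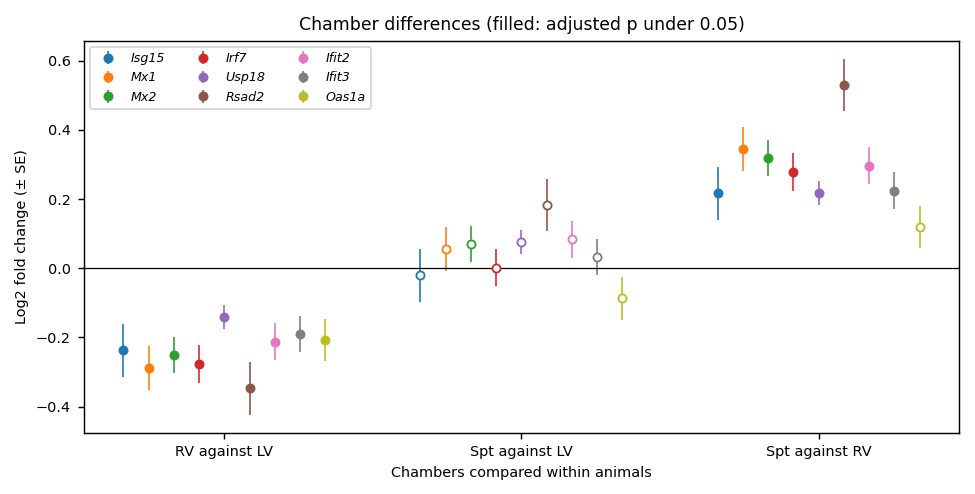
Log2 fold change (± SE) of the 9 genes between chambers of the same animals. Filled points have an adjusted p under 0.05. All 9 genes are lower in RV than in LV (−0.14 to −0.35), none differs between Spt and LV at that threshold, and 8 are higher in Spt than in RV, with Oas1a (0.12) open.

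None of the 9 members passed between Spt and LV, where 14.1% of all genes did, and the values lay between −0.09 (Oas1a) and 0.18 (Rsad2), with 2 members at an unadjusted p under 0.05. DESeq2 called 0 as well. Between Spt and RV 8 of 9 were higher in Spt, beside 16.7% of the genes tested (higher in Spt), from 0.22 ± 0.08 (SE) for Isg15 to 0.53 ± 0.08 for Rsad2, and Oas1a had 0.12 ± 0.06 with an adjusted p of 0.130. Most Spt libraries belong to another library series than LV and RV. With the series as a factor, all 9 members kept a positive value against RV, 0 were called and 4 had an unadjusted p under 0.05, beside 1.87% of all genes. The comparison of RV with LV, which are of the same series in each animal, had 9 of 9 called in that fit too, beside 45.2% of all genes.

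The labels of 3 animals bear on this comparison. In PAB-H 2, Sham-H 6 and AOB-H 1, the difference between RV and LV over the 50 genes that best separated the chambers in the other animals had the opposite sign. The members' mean deviation was −0.30 in the library labelled LV and 0.14 in that labelled RV of Sham-H 6, −0.32 and 0.26 in PAB-H 2, and −0.39 and 0.34 in AOB-H 1. Which library holds which chamber was not tested. Without these animals 9 of 9 members were lower in RV than in LV (46% of all genes called), 9 of 9 were higher in Spt than in RV (33.8%), and 9 of 9 were called between animals (34.4%). Markers of macrophages were lower in RV than in LV for 9 of 9 genes and lower in Spt than in LV for 9 of 9. Of all genes, 50.9% had values lower in RV than in LV and 46.6% had values lower in Spt than in LV. Of 9 cardiomyocyte markers tested, 6 were higher in RV. Their part in the chamber difference was not tested.

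Among the other genes of the pathway, 25 of 40 interferon-stimulated genes were called lower in RV than in LV and 0 higher. The share of all genes called lower in RV was 18.3%. Between Spt and RV, 24 were called higher in Spt and 1 lower, beside 16.7% of all genes called higher in Spt. Of the genes of signal transduction, 6 of 14 were called lower in RV and 2 higher, and of the receptors 3 of 5 were called lower. Genes of antigen presentation were split, with 4 called lower and 1 called higher of 16.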

How the data were processed

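The authors made polyA-selected, strand-specific libraries, read them from 1 end, trimmed with Trim Galore, aligned to Rnor6.0 by STAR and counted reads per gene with featureCounts. The deposited table holds these whole-number counts, which entered every test. It also holds a signal that the authors made with DESeq2 by scaling each library's counts by its size factor, used here only to derive gene length. The deposited FPKM are those normalized counts divided by gene length by the authors, and served to compare levels between genes. Levels per library are CPM after TMM scaling. Totals were 12.1 M to 24.2 M counts (median 17.4 M), and the precision of a level is limited mostly by the spread between animals.

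Tests were edgeR 4.0.16 quasi-likelihood tests (R 4.3.3, limma 3.58.1) with TMM, filterByExpr, a prior count of 2 for log values and Benjamini-Hochberg adjustment at 0.05, over 11703 genes in LV, 11624 in Spt, 11734 in RV, 12379 for chambers summed and 11924 for the 99 libraries together. DESeq2 1.42.0 was an alternative. The edgeR functions were tried on simulated counts, for PAB-H and AOB-F against sham in LV, for the test between animals and for RV against LV. DESeq2, the summed chambers, the age comparison and the alternatives were not tried so. The text names all 9 members, at most 4 pathway genes per comparison by adjusted p, and the 10 genes most like the members. Members and lists were chosen with earlier results of these data known.

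Groups came from sample titles. Same-numbered samples of 1 condition are chambers of 1 animal, which was the block in the chamber comparisons. The numbers do not pair animals across conditions, though in the compensated groups equal numbers share a library series. P-values of the banding and age comparisons set a difference against the spread between animals. The fit of the 99 libraries holds terms for the animals. Its p-values, between animals and between chambers, rest on the spread among the chambers of an animal. For RV samples the tissue entry contradicts the title and source name, which were followed. For the RV of Sham-LF 1 the description names a column of a pulmonary artery sham, whereas the title and the table's own column name an aortic sham, which was followed. The result of 1 pathway gene is not reported here.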

Additional observations from a re-analysis of the deposited data

Results flagged for a closer look

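In groups of 4 to 7 animals, the gap of the highest or lowest library to its neighbour was set against the range of its group (Dixon's criterion), for each member and chamber. Of 108 groups 13 stood out. Chance flags about 1 in 20 groups, but these groups are not independent. The members vary together and the chambers come from the same animals, so the count cannot be weighed against that rate. No rate over all genes is given. Groups of 2 or 3 animals were not tested.

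The animal Sham-H 1 accounted for 6 of them, as the highest library, with 70.7 CPM in LV and 61.5 in RV for Isg15, 185 in Spt for Mx2, 72.0 in RV for Usp18, and 28.2 in LV and 26.2 in RV for Oas1a. PAB-H 7 was the lowest library for Mx2 in RV (54.8 CPM) and for Usp18 in LV (29.6). AOB-F 2 was the highest for Usp18 in LV (47.7 CPM). PAB-H 6 was the highest for Ifit2 in RV (114 CPM) and in Spt (127).

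AOB-H 1 was the highest for Isg15 in the library labelled RV (42.8 CPM). It is 1 of the 3 animals whose difference between RV and LV over 50 genes had the opposite sign. AOB-H 4 was the highest for Rsad2 in Spt (49.6 CPM).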

How the results depend on the processing

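The 16 comparisons of banding with sham had 0 members called under the alternatives run, except PAB-F in Spt, where 3 were called with only the groups compared, which is also the fit within library series 3. The cause was not tested. A replicate block by number called 0 members in these comparisons. Same-numbered samples of the compensated conditions belong to the same library series but to different animals, and 32 of 57 same-numbered pairs correlated above 0.1 (−0.32 to 0.79), with 0.55 to 0.79 for numbers 1 and 2 of these conditions in LV and RV. Leaving out each animal gave 0 to 0 members called in all banding comparisons and in the older shams in LV and RV, 0 to 3 in the older shams in Spt (3 without Sham-H 5, 1 without Sham-LF 3), 7 to 9 for RV against LV, 0 to 1 for Spt against LV (1 without AOB-F 3), 7 to 8 for Spt against RV and 8 to 9 between animals. These refits of the 99 libraries kept the dispersion trend of the full fit. DESeq2 called 1 member in the older shams in Spt and 1 in RV.

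Without the animal as a block, 5 members were called for RV against LV, beside 28.4% of all genes. With library series as a factor, 0 were called for Spt against RV. Between animals, 4 were called with LV and Spt, 3 with Spt and RV and 0 at the failure stage, where fewer libraries were fitted. Values between Spt and LV kept their sign for Oas1a, Rsad2 and Usp18. Those of the other members were near 0 and changed sign in some settings. With series as a factor they were −0.0158 for Ifit2, −0.0493 for Ifit3, −0.0987 for Irf7, −0.165 for Mx1 and −0.0094 for Mx2. Irf7 was −0.0258 with LV and RV exchanged in the 3 animals, −0.0185 without them, and −0.0219 to 0.0175 when each animal was left out, and Isg15 was −0.0612 to 0.0174. The exchange, and leaving out Sham-H 1 with PAB-H 7, were chosen after seeing the data.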
